A study of Mus musculus with 6 samples.

Results

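The genes described here are 31 genes of cholesterol synthesis, uptake and efflux, measured by RNA sequencing in primary mouse keratinocytes with and without iASPP. They were taken by name from the table of counts per gene, which lists 55367 gene names, and all 31 were found there and had enough counts to be tested. By role they fall into 8 early enzymes (from acetyl-CoA to farnesyl and geranylgeranyl diphosphate), 12 late enzymes (from squalene to cholesterol), 5 genes that control the SREBP transcription factors and 6 genes of sterol transport, efflux and esterification. A further 45 genes of the pathway were taken as a separate list, described last.

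Keratinocytes from the skin of day 2 pups of a mixed C57BL/6 and 129/Sv background were cultured in 3 batches, each divided into a culture with tamoxifen (iASPP KO) and a culture without it (iASPP WT). Cells of both conditions carried *Ppp1r13l*, the gene that encodes iASPP, with both copies floxed at exon 8, and a tamoxifen-inducible Cre (Ppp1r13lflox/flox;Cre+ERT). The Cre was driven from the ROSA26 locus, which is active in most cell types, so it could act in any cell of the dish. Tamoxifen was given with the medium change at 24 h, for 4 further days of culture in low-calcium medium with calcium-stripped serum, at 1 mM tamoxifen by the labels and 1 μM by the study's methods. The iASPP-WT cultures received no tamoxifen, so the drug and the deletion cannot be told apart in any difference below. Tamoxifen is itself known to bind sterol enzymes of the late pathway, among them the *Ebp* product.

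Cells make cholesterol from acetyl-CoA through mevalonate and farnesyl diphosphate, and then through squalene and lanosterol. The genes of these enzymes are activated by SREBP factors, which SCAP carries from the endoplasmic reticulum to the Golgi when sterols are scarce, and which INSIG proteins hold back when sterols are plentiful. When oxysterols accumulate, LXR receptors activate the exporters ABCA1 and ABCG1. In the epidermis cholesterol is one of the main lipids of the permeability barrier, and keratinocytes make much of it themselves.

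The CCAAT box and the GC box were each found in the promoter windows of most members, whose selection did not use them. Promoter windows of 300 bases (250 before and 50 after the transcript start, RefSeq, GRCm38.p6) were found for 26 of the 31 members, with no window for *Fdps*, *Fdft1*, *Sqle*, *Stard4* and *Abcg1*. The box CCAAT, which NF-Y binds, was searched on both strands and was present for 22 of the 26 members (84.6%), against 42.9% of the 10565 tested genes with a window. Of the 17 synthesis enzymes with a window, 16 held it. Read along the gene, 32 of the 48 matches in member windows (66.7%) were in the reversed form ATTGG, against 50.6% of the 7957 matches in the windows of tested genes. The GC box GGGCGG was present for 23 of the 26 members (88.5%), against 68% of tested genes. The letters TCACNCCAC, a form of the sterol regulatory element that SREBP binds, were found for 1 member, *Hmgcs1* (3.85% of the 26), and for 1.38% of tested genes. Their shorter core CACNCCAC, which overlaps it, was found for *Acat2*, *Hmgcs1* and *Insig1* (11.5%), against 7.57% of tested genes. The AP1 letters TGANTCA were found for *Dhcr7*, *Lbr* and *Msmo1* (11.5%), against 6.72% of tested genes. The counts for these last motifs are too small for a comparison with tested genes. These matches are descriptions of the windows and were not tested for binding. A search for exact letters misses variant forms and sites outside the windows.

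The 4 members with significantly higher expression in iASPP KO that had a window all held the CCAAT box, as did 22 of all 26 members with a window. Their upstream sequences are printed here with that of *Hmgcs1*, the member with the letters TCACNCCAC. They run 5′ to 3′ along the gene, GRCm38.p6 from RefSeq, and stop before the first base of the gene in the count table. Capitals mark CCAAT or its reverse ATTGG, and in *Hmgcs1* also TCACNCCAC. The positions are chrX:8193513-8193762 (minus strand) for *Ebp*, chr1:169969242-169969455 (minus strand) for *Hsd17b7*, chr5:28071162-28071362 (plus strand) for *Insig1*, chr10:76531355-76531587 (plus strand) for *Lss* and chr13:119690101-119690350 (plus strand) for *Hmgcs1*.
Ebp: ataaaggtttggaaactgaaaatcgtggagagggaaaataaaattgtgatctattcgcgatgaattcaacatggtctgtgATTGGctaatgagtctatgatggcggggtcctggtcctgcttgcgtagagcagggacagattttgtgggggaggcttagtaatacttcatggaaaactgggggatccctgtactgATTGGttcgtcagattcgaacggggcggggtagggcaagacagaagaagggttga
Hsd17b7: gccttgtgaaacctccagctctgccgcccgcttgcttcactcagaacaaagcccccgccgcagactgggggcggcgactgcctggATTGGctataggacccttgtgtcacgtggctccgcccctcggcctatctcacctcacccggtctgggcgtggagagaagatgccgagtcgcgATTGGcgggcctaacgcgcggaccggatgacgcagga
Insig1: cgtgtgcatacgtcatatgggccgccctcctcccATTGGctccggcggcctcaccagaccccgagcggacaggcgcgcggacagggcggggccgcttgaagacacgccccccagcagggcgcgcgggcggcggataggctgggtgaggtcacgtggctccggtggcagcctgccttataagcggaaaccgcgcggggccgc
Lss: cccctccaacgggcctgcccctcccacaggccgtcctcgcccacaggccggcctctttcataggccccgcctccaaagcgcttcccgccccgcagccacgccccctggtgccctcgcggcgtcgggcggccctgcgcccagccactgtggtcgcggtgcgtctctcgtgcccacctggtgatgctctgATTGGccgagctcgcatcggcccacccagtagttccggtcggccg
Hmgcs1: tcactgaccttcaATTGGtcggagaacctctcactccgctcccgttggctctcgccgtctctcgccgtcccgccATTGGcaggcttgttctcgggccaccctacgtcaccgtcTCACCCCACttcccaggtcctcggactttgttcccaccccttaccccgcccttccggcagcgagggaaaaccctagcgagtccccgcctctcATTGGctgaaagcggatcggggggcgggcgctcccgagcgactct
In *Ebp* the first letters of the 2 boxes lay 170 and 55 bases before the RefSeq start, in *Insig1* the box lay 216 bases before it and in *Lss* 62. *Hsd17b7* had boxes at 165 and 73 bases, and a further one at 12 bases that falls outside the printed stretch. In *Hmgcs1* boxes lay at 237, 176 and 45 bases and the letters TCACNCCAC at 137. A further box of *Hmgcs1* lay after the RefSeq start, outside the printed stretch.

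The libraries held 20202517 to 25157117 counts, and 3 counts corresponded to 0.123 to 0.141 CPM, where CPM is the count per 1000000 reads after TMM normalization (a limit for counting error only). For *Ppp1r13l* the counts of batches 1, 2 and 3 were 320, 395 and 139 in iASPP KO against 697, 1100 and 472 in iASPP WT. Its log2 fold change was −1.45 (SE 0.184, Benjamini-Hochberg adjusted p = 0.00296, edgeR quasi-likelihood test). All 9 basal keratinocyte markers were detected, none of them passed the test, and they summed to 27670 to 30480 CPM in iASPP KO and to 28590 to 33560 CPM in iASPP WT. The 5 adipocyte markers summed to at most 0.223 CPM in iASPP KO, against 1.36 in iASPP WT, and the 7 sebocyte markers to 6.67 to 21.6 and 5.81 to 11.2 CPM, with the sebocyte gene *Awat1* at 0 in every library. Most of the sebocyte sum was *Cidea*, a lipid droplet gene, at 10.1, 20.7 and 5.91 CPM in iASPP KO and 4.45, 10.5 and 6.33 CPM in iASPP WT. It was higher in iASPP KO in batches 1 and 2 and lower in batch 3, with a log2 fold change of 0.70 (SE 0.290, Benjamini-Hochberg adjusted p = 0.255, edgeR quasi-likelihood test). Of 6 proliferation markers 5 were significantly lower in iASPP KO (summed level 174.5 to 480 CPM, against 331 to 803), and of 6 suprabasal markers 2 were higher (*Sbsn*, *Tgm3*) and 2 lower (*Krt10*, *Flg*). Among other cells, 2 of 6 fibroblast markers were lower (*Col1a2*, *Col3a1*). The fibroblast sums were 36.7 to 454 CPM in iASPP KO and 33.7 to 669 in iASPP WT, highest in batch 3. The other fibroblast markers did not pass, and their log2 fold changes had both signs, from −1.14 (*Lum*) to 0.81 (*Pdgfra*). Of 4 tested leukocyte markers 1 was higher (*Csf1r*), with sums of 22.7 to 67.5 and 14.3 to 57.6 CPM. Most of each leukocyte sum was *Cd68* and *Csf1r*, while *Ptprc* was at most 2.14 CPM in any library. None of 4 melanocyte markers (254 to 721 and 229 to 740 CPM) and none of 2 tested endothelial markers passed. The part of these cell states and cells in the results below was not tested, and in bulk RNA fewer cells of a type cannot be told apart from less RNA per cell.

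The levels of the members in iASPP WT differed widely, within the synthesis enzymes too. Per kilobase of exon the highest levels were those of *Hmgcs1* (229 ± 28.0 CPM per kb, SD, n = 3), *Cyp51* (214 ± 72.2) and *Insig1* (112 ± 42.6). The lowest were those of *Soat1* (2.26 ± 0.571 CPM per kb), *Tm7sf2* (4.04 ± 1.73) and *Idi1* (4.26 ± 0.503). In the order of the 31 levels, the ranges of mean ± SD overlapped for 29 of the 30 neighbouring pairs. The exception was *Srebf1* (29.1 ± 1.22 CPM per kb) above *Scap* (23.0 ± 3.21). All genes were read in the same libraries, and these ranges ignore that pairing. Overlap therefore does not show that the order of a pair was unstable, and the order within libraries was not tested.

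**Figure D1:**
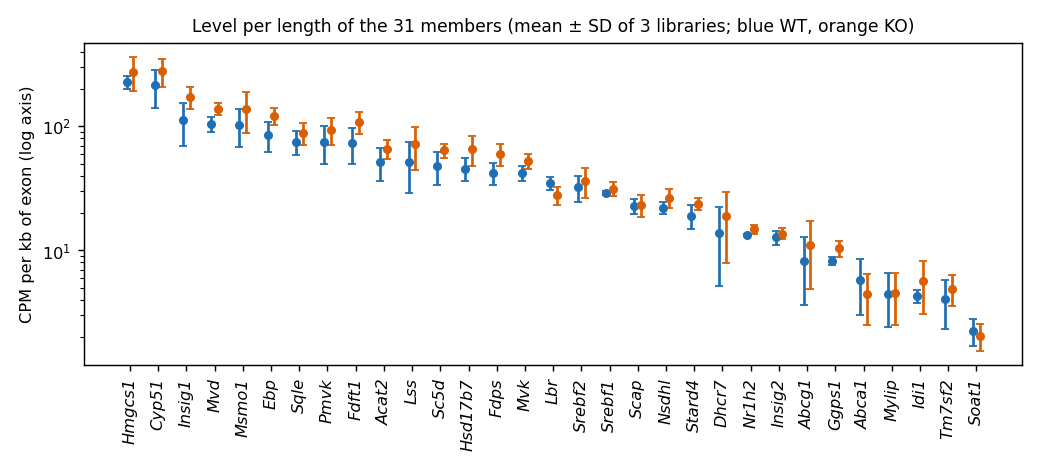
Level per kilobase of exon of each of the 31 genes, in CPM per kb on a log axis, as the mean ± SD of the 3 iASPP-WT (blue) and 3 iASPP-KO libraries (orange), ordered by the iASPP-WT mean. *Hmgcs1* and *Cyp51* lie at the top, at 229 and 214 CPM per kb in iASPP WT, and *Soat1* at the bottom, at 2.26.

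Each condition had a single library per batch, so the SD holds differences between batches and between single libraries together. Over the 31 members the highest iASPP-WT library stood a median of 1.61 times above the lowest, from 1.04 times for *Nr1h2* to 3.71 times for *Abcg1*, and for 9 members by over 2 times. *Dhcr7*, the reductase of the last step from 7-dehydrocholesterol, shows this. Its counts in batches 1, 2 and 3 were 1452, 3276 and 835 in iASPP WT and 2438, 3885 and 1110 in iASPP KO. Every batch had the higher value in iASPP KO, yet the batches lay further apart than the conditions. For this reason iASPP KO was compared with iASPP WT within batch, by edgeR's quasi-likelihood test with a batch term over all 14916 tested genes.

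Significantly higher expression in iASPP KO was found by edgeR for 6 of the 31 members. Significantly lower expression was found for none, by edgeR or by DESeq2. Among all tested genes 2.17% were higher and 1.95% lower (4.12% in either direction). The 6 were *Fdps* of the early enzymes, *Fdft1*, *Lss*, *Hsd17b7* and *Ebp* of the late enzymes, and *Insig1*. The log2 fold change (KO over WT throughout) was above 0 for 28 members and below 0 for *Lbr*, *Abca1* and *Soat1*, with a median of 0.34 against 0.01 over all tested genes. At an unadjusted p under 0.05, 17 members were higher and 1 was lower, where all tested genes gave 1292 and 1206. The single-batch value was above 0 in all 3 batches for 19 members, against 19.5% of tested genes, and below 0 in all 3 for 1 (*Lbr*), against 19.7%. By batch the median over the members was 0.48, 0.19 and 0.34. The members were chosen with earlier results of these libraries known, so these counts describe the list and give no independent support for its direction.

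**Figure D2:**
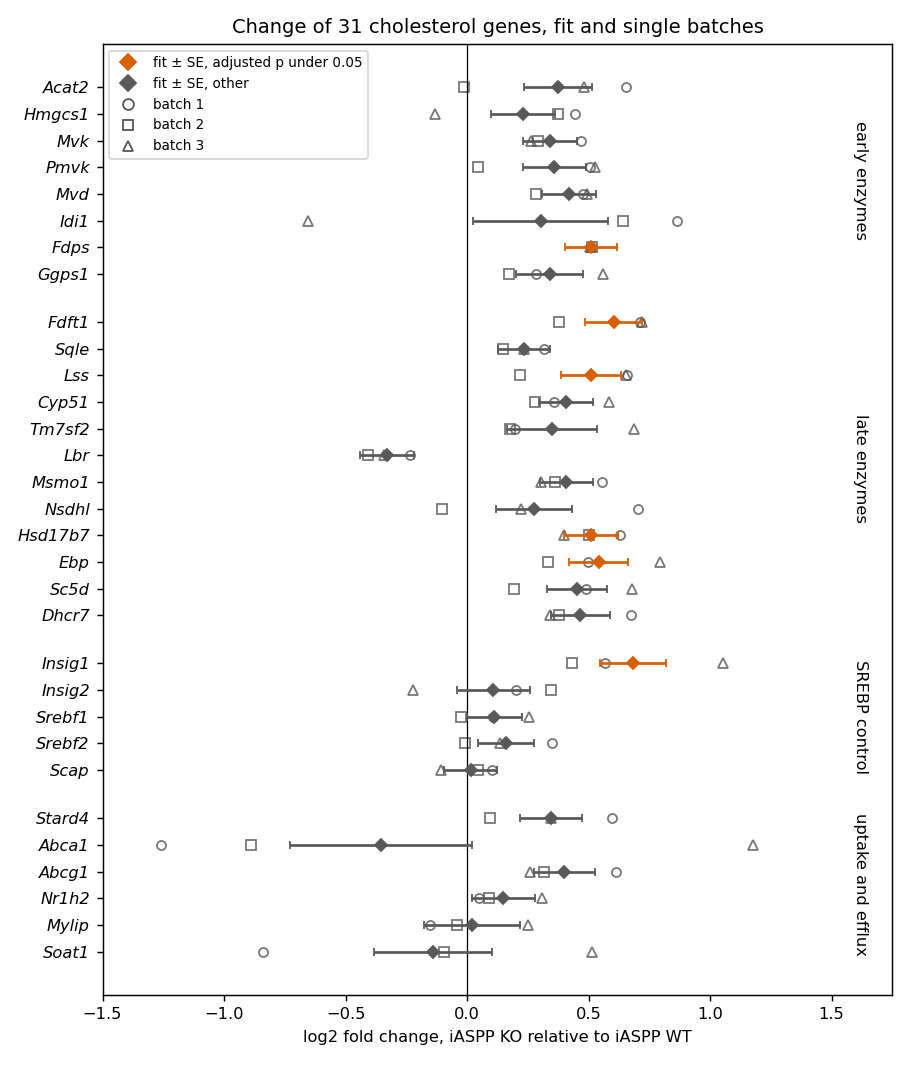
Log2 fold change (KO over WT) of the 31 genes, grouped by role, with the fitted value ± SE (diamonds, orange where the adjusted p was under 0.05) and the value in each batch (open symbols). Most early and late enzymes lie above 0 in all batches, *Lbr* lies below 0 in all of them, and *Abca1* runs from −1.26 in batch 1 to 1.18 in batch 3.

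The count of 6 depended on the batches. Without batch 1 only *Insig1* passed (1.09% of all genes higher) and without batch 2 *Fdft1* and *Insig1* (1.14%). Without batch 3, 13 members passed upward (5.2%) and *Abca1* downward (4.34%), where the 7 added members were *Abcg1*, *Dhcr7*, *Hmgcs1*, *Idi1*, *Msmo1*, *Mvd* and *Mvk*. *Insig1* was significantly higher in every fit with the batch term. All 6 calls were kept with DESeq2 (11 members and 3.91% of genes higher), with no filter beyond 1 count (11 members and 1.95%), with at least 10 counts in every library (8 members and 3.09%) and with robust dispersion (9 members and 2.57%). With the size factors of DESeq2 and with upper-quartile scaling the same 6 were called (2.47% and 2.44%).

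The early enzymes carry acetyl-CoA through mevalonate to farnesyl diphosphate, from which sterols, dolichol, ubiquinone and protein prenyl groups are made. *Fdps* alone of the 8 had significantly higher expression in iASPP KO. All 8 had a log2 fold change above 0 (0.23 to 0.51, median 0.35), and the median was 0.49, 0.29 and 0.49 in batches 1, 2 and 3. Summed over the 8 genes, the level was 2651, 2591 and 1729 CPM in iASPP KO, against 1906, 2074 and 1569 in iASPP WT, a ratio of 1.39, 1.25 and 1.1 within batches. *Hmgcs1* makes up the largest share of each sum.

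*Fdps* (chromosome 3, 89093588 to 89101959), which encodes farnesyl diphosphate synthase, had counts of 6029, 6517 and 4615 in iASPP KO, in the order of the batches. The iASPP-WT cultures had 4021, 4997 and 3097. Each batch was higher in iASPP KO, while the batch 3 iASPP-KO culture stayed below the batch 2 iASPP-WT culture in CPM (196 against 205), so the conditions overlapped. The mean was 252 ± 50.2 CPM against 177 ± 34.9 (SD, n = 3 each), for a log2 fold change of 0.51 (SE 0.106, Benjamini-Hochberg adjusted p = 0.0267, edgeR quasi-likelihood test). The 3 batches gave nearly the same change (0.51, 0.51 and 0.51). Of its exon bases 26.7% also belong to the gene model *Gm43738* on the same strand, and 12.5% of its 42-base read windows occur in other genes.

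*Hmgcs1* (chromosome 13, 119690379 to 119708260), the cytosolic synthase that makes HMG-CoA, had the smallest log2 fold change of the early enzymes. Its counts were 33440, 33341 and 19515 in iASPP KO and 23342, 28142 and 20376 in iASPP WT. It was higher in iASPP KO in batches 1 and 2 and lower in batch 3 (0.45, 0.37 and −0.13), and the fit over all batches gave 0.23 (SE 0.131, Benjamini-Hochberg adjusted p = 0.433, edgeR quasi-likelihood test). Without batch 3 it passed, at 0.41 (Benjamini-Hochberg adjusted p = 0.00604, edgeR quasi-likelihood test, and 0.00604 to 0.977 over the alternatives). That fit leaves out the batch of opposite sign. *Acat2*, the cytosolic thiolase of the step before, had 132 ± 39.7 CPM in iASPP WT and 168 ± 29.1 in iASPP KO, a log2 fold change of 0.37 ± 0.14 (SE), and −0.01 to 0.65 over batches. Of its 42-base read windows 47.5% also occur in *Acat3* or *Tcp1*.

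The kinases and the decarboxylase that follow had fold changes of like size. *Mvk*, mevalonate kinase, had 112 ± 15.1 CPM in iASPP WT and 142 ± 19.5 in iASPP KO (log2 fold change 0.34, 0.26 to 0.47 over batches). *Pmvk*, which adds the second phosphate, had 129 ± 43.7 and 162 ± 40.4 CPM (0.36, 0.04 to 0.53). *Mvd*, the decarboxylase that forms isopentenyl diphosphate, was at 203, 216 and 163 CPM in iASPP WT and 283, 263 and 230 CPM in iASPP KO. Here every iASPP-KO culture lay above every iASPP-WT culture. It missed the threshold with a log2 fold change of 0.42 (SE 0.110, Benjamini-Hochberg adjusted p = 0.0669, edgeR quasi-likelihood test).

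*Idi1*, the isomerase that gives the second isoprene unit, had opposite changes in different batches. Its level was 13.2, 16.7 and 14.9 CPM in iASPP WT and 24.1, 26.2 and 9.43 CPM in iASPP KO. The log2 fold change was 0.87 and 0.64 in batches 1 and 2 and −0.65 in batch 3, and 31.2% of its read windows occur in other genes. *Ggps1*, which makes the geranylgeranyl diphosphate of protein prenylation, had 35.8, 41.5 and 39.2 CPM in iASPP WT and 43.7, 46.8 and 57.8 CPM in iASPP KO. These conditions did not overlap either, and the log2 fold change was 0.34 (SE 0.139, Benjamini-Hochberg adjusted p = 0.247, edgeR quasi-likelihood test). Of the 31 members 4 had iASPP-KO cultures all above the iASPP-WT cultures, namely *Mvd*, *Ggps1*, *Ebp* and *Nr1h2*, against 5.26% of tested genes, and none had them all below, against 5.46%.

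The late enzymes join farnesyl diphosphate into squalene, close it to lanosterol and trim lanosterol to cholesterol. In iASPP KO 4 of the 12 had significantly higher expression, *Fdft1*, *Lss*, *Hsd17b7* and *Ebp*, and none was significantly lower. The log2 fold change was above 0 for 11 of them and below 0 for *Lbr*, with a median of 0.43, and 0.53, 0.25 and 0.49 in batches 1, 2 and 3. All 3 batches were above 0 for 10 of the 12. The summed level was 5814, 5802 and 3541 CPM in iASPP KO, against 4160, 4803 and 2560 in iASPP WT, a ratio of 1.40, 1.21 and 1.38. The difference between the medians of late and early enzymes (0.43 and 0.35) was not tested.

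**Figure D3:**
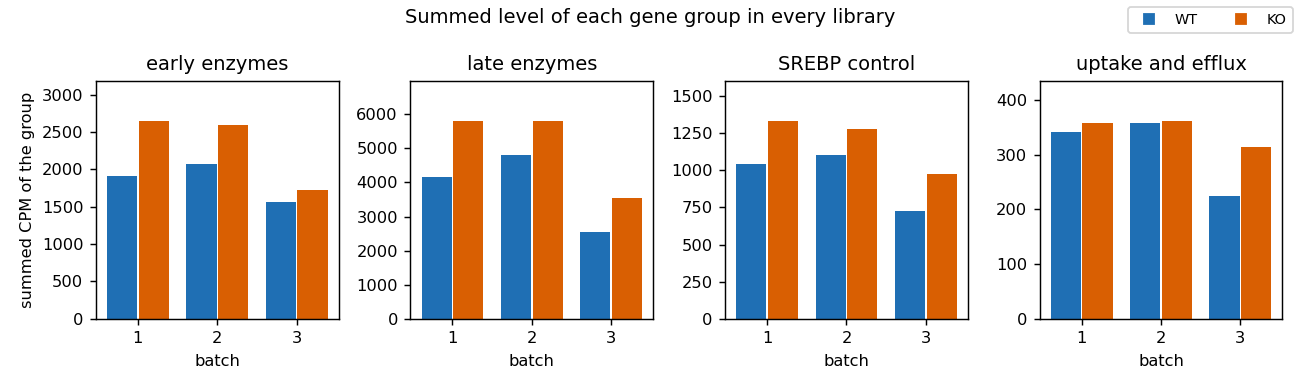
Summed level in CPM of the genes of each role, in the iASPP-WT (blue) and iASPP-KO library (orange) of each batch. In all 4 roles the iASPP-KO bar is the taller of its batch, by 1.21 to 1.40 times for the late enzymes and 1.01 to 1.40 times for uptake and efflux, and batch 3 has the lowest bars.

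*Fdft1* (chromosome 14, 63145150 to 63179578), squalene synthase, is the first enzyme committed to sterols. It had 10372, 11771 and 8283 counts in iASPP KO and 6026, 9903 and 4799 in iASPP WT. Each batch was higher in iASPP KO, and only the batch 2 iASPP-WT culture (406 CPM) reached above an iASPP-KO culture (352 CPM in batch 3). The mean was 447 ± 89.2 CPM against 301 ± 97.5 (SD, n = 3 each), with a log2 fold change of 0.60 (SE 0.117, Benjamini-Hochberg adjusted p = 0.0204, edgeR quasi-likelihood test). The batches gave 0.71, 0.38 and 0.72. The end of this gene overlaps *Ctsb* on the opposite strand over 18.8% of its exon bases, and 32.9% of its read windows occur, in either orientation, in *Ctsb* or *Gm6781*. The counting used strand, and *Ctsb* itself had a log2 fold change of 0.37 (SE 0.111, Benjamini-Hochberg adjusted p = 0.110, edgeR quasi-likelihood test).

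*Sqle*, the epoxidase that acts on squalene, did not pass. It had 419 ± 90.6 CPM in iASPP WT and 491 ± 102 in iASPP KO, with a log2 fold change of 0.23 (0.15 to 0.32 over batches). *Lss* (chromosome 10, 76531588 to 76557138), which closes the ring to lanosterol, had 22309, 19662 and 10488 counts in iASPP KO and 13436, 18492 and 6353 in iASPP WT. The batch 3 cultures were lowest in both conditions, and its iASPP-KO culture (446 CPM) lay below the iASPP-WT cultures of the other batches (630 and 759 CPM). The log2 fold change was 0.51 (SE 0.123, Benjamini-Hochberg adjusted p = 0.0481, edgeR quasi-likelihood test), with 0.66, 0.22 and 0.66 in the batches. Of the 6 calls this one lay nearest to the threshold.

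The next enzymes remove methyl groups from lanosterol. *Cyp51*, lanosterol demethylase, had 1103, 1152 and 577 CPM in iASPP WT and 1412, 1399 and 865 CPM in iASPP KO. All batches were higher in iASPP KO, and the log2 fold change of 0.41 (SE 0.111) missed the threshold (Benjamini-Hochberg adjusted p = 0.0761, edgeR quasi-likelihood test). *Msmo1*, the methylsterol monooxygenase, had 666, 830 and 402 CPM in iASPP WT and 978, 1068 and 496 CPM in iASPP KO. Its log2 fold change was also 0.41 (0.30 to 0.55 over batches). *Nsdhl*, the dehydrogenase of the same complex, had 62.7 ± 6.99 CPM in iASPP WT and 76.2 ± 12.9 in iASPP KO, and the batches ran from −0.10 to 0.70 around a fitted 0.27.

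*Hsd17b7* (chromosome 1, 169949535 to 169969241), a ketosterol reductase that takes part in the removal of methyl groups, had 8959, 8325 and 5487 counts in iASPP KO. The iASPP-WT cultures had 5501, 6437 and 3972. Each batch was higher in iASPP KO, and only the batch 3 iASPP-KO culture (233 CPM) lay within the iASPP-WT range, whose top was 264 CPM. The level was 335 ± 89.4 CPM against 233 ± 48.6 (SD, n = 3 each), for a log2 fold change of 0.51 (SE 0.110, Benjamini-Hochberg adjusted p = 0.0305, edgeR quasi-likelihood test). No 42-base window of this gene occurs in another gene.

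*Tm7sf2* and *Lbr* encode reductases of the same step, and their fold changes had opposite signs. *Lbr* (chromosome 1, 181815335 to 181843046), whose protein is also the lamin B receptor of the inner nuclear membrane, had 3337, 2399 and 3324 counts in iASPP KO and 3739, 3480 and 4024 in iASPP WT. It was lower in iASPP KO in all 3 batches (−0.24, −0.41 and −0.34), and the fitted log2 fold change of −0.33 (SE 0.110) did not pass (Benjamini-Hochberg adjusted p = 0.150, edgeR quasi-likelihood test). *Lbr* was the only synthesis enzyme below 0. *Tm7sf2* had 17.8 ± 7.60 CPM in iASPP WT and 21.7 ± 6.12 in iASPP KO, with a log2 fold change of 0.35 (0.18 to 0.69 over batches). Per kilobase *Lbr* was the higher of the pair, at 34.8 ± 4.20 CPM per kb against 4.04 ± 1.73 in iASPP WT.

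*Ebp* (chromosome X, 8185329 to 8193512), the sterol isomerase that tamoxifen is known to bind, had 7184, 6334 and 5489 counts in iASPP KO and 4831, 5507 and 3017 in iASPP WT. In CPM the lowest iASPP-KO culture (233) lay above the highest iASPP-WT culture (226), so the conditions did not overlap. The level was 279 ± 43.6 CPM against 196 ± 53.0 (SD, n = 3 each), for a log2 fold change of 0.54 (SE 0.122, Benjamini-Hochberg adjusted p = 0.0365, edgeR quasi-likelihood test). The batches gave 0.50, 0.33 and 0.80. *Sc5d*, the desaturase that follows, had 232, 302 and 166 CPM in iASPP WT and 327, 345 and 265 CPM in iASPP KO, and its log2 fold change was 0.45 (SE 0.123, Benjamini-Hochberg adjusted p = 0.0752, edgeR quasi-likelihood test). *Dhcr7*, described above, had 0.47 (SE 0.121, Benjamini-Hochberg adjusted p = 0.0642, edgeR quasi-likelihood test). Both were up in all 3 batches.

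**Figure D4:**
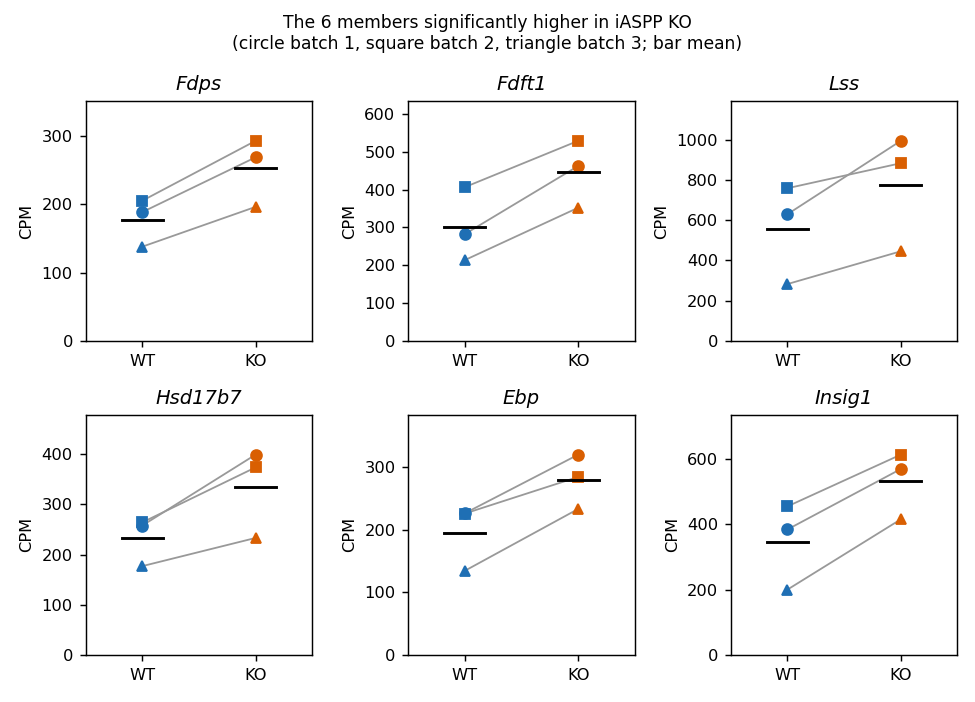
Level in CPM of the 6 genes with significantly higher expression in iASPP KO, in each library, with lines joining the cultures of a batch and bars at the mean of 3 libraries. Every line rises from iASPP WT to iASPP KO, and only for *Ebp* do all iASPP-KO points (233 to 320 CPM) lie above all iASPP-WT points (134 to 226 CPM).

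Among the genes of SREBP control, *Insig1* had the largest rise of all 31 members, while the SREBP genes themselves and their escort did not pass. *Insig1* (chromosome 5, 28071363 to 28078662), which encodes an anchor that holds SCAP in the endoplasmic reticulum and is itself an SREBP target, had 12795, 13677 and 9785 counts in iASPP KO and 8208, 11102 and 4494 in iASPP WT. Every batch was higher in iASPP KO, and batch 3, where iASPP WT was lowest (200 CPM, against 385 and 455), had the largest change (0.57, 0.43 and 1.05). The level was 533 ± 104 CPM against 347 ± 132 (SD, n = 3 each), with a log2 fold change of 0.68 (SE 0.135, Benjamini-Hochberg adjusted p = 0.0222, edgeR quasi-likelihood test). Only the batch 3 iASPP-KO culture (416 CPM) fell within the range of iASPP WT.

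*Insig2*, the second INSIG gene, had 44.2 ± 5.51 CPM in iASPP WT and 47.6 ± 4.80 in iASPP KO (log2 fold change 0.11, −0.22 to 0.35 over batches). *Srebf2*, which encodes the SREBP of cholesterol synthesis, had 258, 271 and 168 CPM in iASPP WT and 329, 270 and 185 CPM in iASPP KO. Its log2 fold change was 0.16 (SE 0.115, Benjamini-Hochberg adjusted p = 0.567, edgeR quasi-likelihood test), and the cultures of batch 2 were nearly equal. *Srebf1*, whose products favour fatty acid synthesis, had 164 ± 6.86 and 178 ± 22.5 CPM (0.11, −0.03 to 0.25 over batches). *Scap* (chromosome 9, 110333288 to 110384950), the escort, had the smallest change of all members, with 4492, 4222 and 3144 counts in iASPP KO and 3976, 4482 and 3227 in iASPP WT. Its log2 fold change was 0.01 (SE 0.110) and its sign differed between batches (0.10, 0.04 and −0.11). Over the 5 control genes the median was 0.11.

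Genes of transport, efflux and esterification had no shared direction. None of the 6 passed edgeR's test or DESeq2, 2 were higher at an unadjusted p under 0.05 in edgeR, 4 had a log2 fold change above 0 and 2 below, and the median was 0.09, with −0.05, 0.02 and 0.33 in batches 1, 2 and 3. *Stard4*, a cytosolic sterol carrier and SREBP target, had 94.4, 133 and 91.1 CPM in iASPP WT and 143, 141 and 116 CPM in iASPP KO. It was up in all batches, with a log2 fold change of 0.34 (SE 0.127, Benjamini-Hochberg adjusted p = 0.195, edgeR quasi-likelihood test).

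The LXR targets *Abca1* and *Abcg1* both export cholesterol, and their values ran differently across batches. *Abcg1* (chromosome 17, 31057675 to 31117988), which loads sterol onto high-density lipoprotein, had 2218, 2537 and 695 counts in iASPP KO and 1379, 2227 and 553 in iASPP WT. It was up in every batch (0.61, 0.32 and 0.26), with a fitted log2 fold change of 0.40 (SE 0.126, Benjamini-Hochberg adjusted p = 0.125, edgeR quasi-likelihood test). *Abca1* (chromosome 4, 53030787 to 53159895), which loads lipid-poor apolipoprotein, had 823, 733 and 1650 counts in iASPP KO and 1878, 1486 and 695 in iASPP WT. It was lower in iASPP KO in batches 1 and 2 (−1.26 and −0.89) and higher in batch 3 (1.18). Over all batches the log2 fold change was −0.35 (SE 0.375, Benjamini-Hochberg adjusted p = 0.721, edgeR quasi-likelihood test), and without batch 3 it was −1.08 (Benjamini-Hochberg adjusted p = 1.24e-10, edgeR quasi-likelihood test, and 1.24e-10 to 0.992 over the alternatives). The fit without batch 3 leaves out the batch of opposite sign, so its p does not measure the spread between the 3 batches.

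*Soat1*, which esterifies cholesterol for storage, had an order like that of *Abca1*. Its level was 28.4, 20.3 and 17.7 CPM in iASPP WT and 15.8, 18.99 and 25.3 CPM in iASPP KO, so that batch 1 was lower in iASPP KO and batch 3 higher (−0.84, −0.09 and 0.51). *Mylip*, an LXR target whose ubiquitin ligase degrades lipoprotein receptors, had 14.5 ± 6.66 CPM in iASPP WT and 14.8 ± 6.67 in iASPP KO, with a log2 fold change of 0.02 (−0.15 to 0.25 over batches). *Nr1h2*, which encodes the LXR receptor found in most tissues, had 45.2, 45.3 and 43.7 CPM in iASPP WT and 46.8, 48.3 and 54.1 CPM in iASPP KO. The cultures did not overlap, yet the change was small, at a log2 fold change of 0.15 (SE 0.131, Benjamini-Hochberg adjusted p = 0.653, edgeR quasi-likelihood test).

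**Figure D5:**
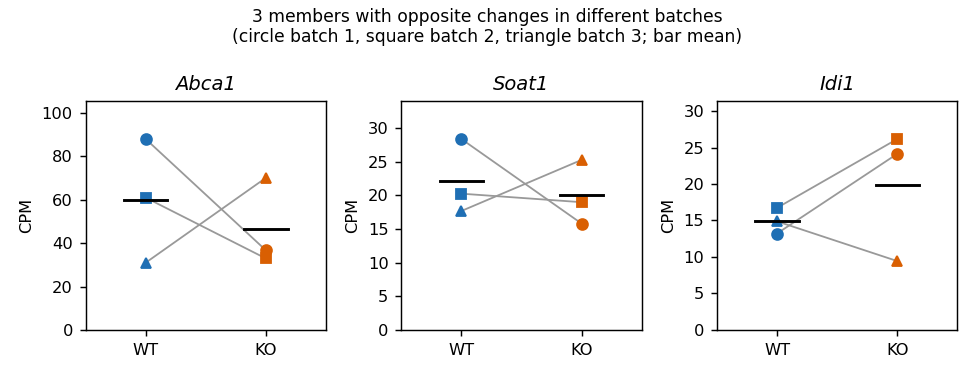
Level in CPM of *Abca1*, *Soat1* and *Idi1* in each library, with lines joining the cultures of a batch and bars at the mean of 3 libraries. The batch 3 line (triangles) rises for *Abca1* and *Soat1*, where those of batches 1 and 2 fall, and falls for *Idi1*, from 14.9 to 9.43 CPM, where the others rise.

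The list of 45 further genes, of sterol control in the endoplasmic reticulum, isoprenoid use, uptake and transport, LXR and efflux, and oxysterols, held 42 tested genes, of which 2 (4.76%) were significantly higher in iASPP KO and none was significantly lower, with a median log2 fold change of 0.06. All tested genes gave 2.17% and 1.95%, so 2 of 42 lies near the share over all genes. *Erlin1*, which encodes a protein of the endoplasmic reticulum that limits SREBP activation, had 921, 1020 and 868 counts in iASPP KO and 628, 747 and 421 in iASPP WT. All iASPP-KO cultures lay above the iASPP-WT cultures in CPM, and the log2 fold change was 0.68 (SE 0.156, Benjamini-Hochberg adjusted p = 0.0400, edgeR quasi-likelihood test). *Lpcat3*, an LXR target that remodels phospholipids, had 2262, 2454 and 1668 counts in iASPP KO and 1526, 1881 and 949 in iASPP WT, and a log2 fold change of 0.58 (SE 0.119, Benjamini-Hochberg adjusted p = 0.0252, edgeR quasi-likelihood test). None of the 11 genes of isoprenoid use, which draw on farnesyl and geranylgeranyl diphosphate, passed, and their median was −0.03. Without batch 1 or without batch 2 neither *Erlin1* nor *Lpcat3* passed.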

How the data were processed

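RNA of 6 libraries was ribodepleted and sequenced in single 42-base reads. The authors used STAR 2.7.3 for alignment to GRCm38 and deposited raw counts per gene name from featureCounts 2.0.0, on exons of the GENCODE vM25 annotation and by strand. Their table of fold changes and p-values was not used. Groups came from the labels, which also give the batch of each library.

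Counts were tested with edgeR 4.0.16 (R 4.3.3): filterByExpr, TMM, batch plus condition, quasi-likelihood test and Benjamini-Hochberg adjustment over 14916 genes, with a threshold of 0.05. The steps were tested on simulated data, with changes larger than the fitted change of any member. That test does not cover smaller changes. Batches pair the libraries, since each was split between the conditions. Same-batch libraries correlated at 0.566, 0.733 and 0.761 in their deviations from the condition means (−0.711 to 0.357 between batches). The deviations within a condition cancel out for each gene, so positive same-batch values by themselves push the values between batches down. The residual has 2 degrees of freedom. Changes in single batches are log2 CPM differences (prior count 2). Libraries of one condition differed well beyond sampling noise.

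The members and lists were chosen with earlier results of these data known. All members are named. Those past the threshold and, in each role, those with the highest and lowest log2 fold change have their counts given, and of the list of further genes those past the threshold are named. *Cidea*, *Awat1*, *Ctsb* and the cell markers named were chosen after their values were seen. Alternatives were no batch term, DESeq2 1.42.0, its size factors, upper-quartile scaling, other filters, robust dispersion and each batch left out. Shared read windows come from GENCODE vM21 transcripts and promoter windows from RefSeq. Figures used Python 3.11.15 and matplotlib 3.10.9.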

Additional observations from a re-analysis of the deposited data

How the results depend on the processing

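The 6 members higher in iASPP KO kept their calls with DESeq2, with its size factors, with upper-quartile scaling, with both other filters and with robust dispersion. DESeq2 and the fit with no filter beyond 1 count each gave 11 higher members, with *Cyp51*, *Dhcr7*, *Msmo1*, *Mvd* and *Sc5d* added (3.91% and 1.95% of all genes higher), and no filter gave 624 genes higher and 491 lower. With no batch term, that is without the replicate block, 0 genes were higher and 0 lower, so 0 members and 0 of the further genes were called, while 2 members were higher at an unadjusted p under 0.05. In that fit *Ppp1r13l* had a log2 fold change of −1.38 and did not pass. It was significantly lower in every fit with the batch term. The paired fit with the batch term gave all the other values here. Leaving out a batch, which equals leaving out either of its libraries, gave 169 to 793 genes higher, 117 to 662 lower, 1 to 13 members higher, 0 to 1 lower and 0 to 3 further genes higher. The losses came without batch 1 or batch 2 and the gains without batch 3. Some fold changes, none of them past the threshold where they changed sign, ran across 0 when a batch was left out: *Insig2* −0.0069 (without batch 2) to 0.27, *Scap* −0.027 (without batch 1) to 0.073, *Abca1* −1.08 to 0.15 (without batch 1), *Mylip* −0.10 (without batch 3) to 0.11 and *Soat1* −0.47 to 0.22 (without batch 1). With a batch left out the median was 0.28 to 0.46 for early enzymes, 0.38 to 0.49 for late enzymes, 0.07 to 0.18 for SREBP control and −0.02 to 0.21 for uptake and efflux. The cause of these changes was not tested.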
